A study of Rattus norvegicus with 32 samples.

Results

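Transcription factor families are described here in the hippocampus of R237H rats, which carry 1 mutant allele of Gfap, the gene of the astrocyte intermediate filament protein GFAP, and model Alexander disease. A total of 59 genes were selected by their symbols, out of 3289 identifiers that have a symbol and 23822 identifiers in the deposited table. The symbols had to begin with the name of a known factor family: Fos, Jun, Maf, Atf, Cebp, Klf, Egr, Runx, Sox, Tead, Smad, Id, Hes, Hey, Bhlhe, Neurod, Fox, Ets, Etv, Tcf, Gata, Mef2, the nuclear receptors and the numbered Zfp genes. The study sequenced polyA-selected hippocampal RNA of 32 Sprague Dawley rats, Crl:CD(SD), each of them either heterozygous Gfap+/R237H or a WT littermate. Males and females were taken at P21 and P56, with 4 rats in each group except for 3 WT and 5 R237H females at P21. The mutation is present in every cell of the R237H rat, and the mutant protein is made where Gfap is expressed. The tissue was the whole hippocampus, so fewer cells of a type and less RNA per cell cannot be told apart.

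The selection used measured values. Symbols were available through the result tables of the study, whose parts used here are sorted by FDR for R237H against WT, so a gene had a symbol because it ranked high in at least 1 of 4 comparisons of the genotypes. Of the 59 members, 30 were named by the table of males at P56, 24 by that of females at P56, 40 by that of males at P21 and 31 by that of females at P21. A total of 15 were named by all 4 tables and 28 by 1 table. Differences of the members between the genotypes are therefore given as a description, without p-values. Genes of the marker and pathway lists below also have a symbol only through these tables, so counts of called genes in a list are a description too. RefSeq lists 586 protein-coding rat genes whose symbols fit the same expression, and values of the other genes were not analysed here.

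Transcription factors bind short DNA sequences and raise or lower the transcription of nearby genes, and members of a family share a DNA-binding fold and often a binding sequence. In glia that react to injury, leucine zipper factors such as AP-1 and C/EBP act downstream of cytokine receptors, whereas SMAD proteins carry signals of BMP and TGF-beta receptors and TEAD proteins act with the coactivators YAP and TAZ. In hippocampal neurons, basic helix-loop-helix factors such as NEUROD2 and NEUROD6 belong to the programme of excitatory neurons. A family name is not always a function. The 3 ZFP36 proteins bind AU-rich elements in mRNA and promote decay of the message, GATAD2A is a subunit of the NuRD chromatin complex and not a GATA factor, ID proteins lack a DNA-binding region and act by pairing with other helix-loop-helix proteins, and TCF19 is not related to the TCF factors of the Wnt pathway.

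Levels in single rats are given as CPM, counts scaled to library size with TMM factors over all 32 rats, so that 1 gene can be compared between rats. Rats are listed in the order of their deposited records, which carries no meaning. Differences are log2 fold changes of R237H against WT with their SE, and a gene is called higher or lower at an FDR under 0.01 over all genes tested. Libraries held 21580397 to 55544871 counts, with the lowest totals in the R237H males R1781H (P21) and s70-B (P56) and at least 38503686 in every other library. Summed choroid plexus markers exceeded 500 TPM in 5 rats (WT males s66-B at P56 and R1781C at P21, R237H male s70-B, R237H female s70-C and WT female R1797C). Gfap ranged from 493 to 1082 CPM in WT rats and from 3120 to 6989 CPM in R237H rats. On the deposited TPM scale the median gene differed between the genotypes by 0.40 in males and 0.26 in females at P56 on the log2 scale, against -0.01 and -0.07 at P21, so TPM values are used here only for levels within WT rats and for marker totals of single libraries.

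Most members were higher in R237H rats. At P56 in males, 33 of the 58 members tested were called higher and 8 lower, where 16.8% and 11.1% of all genes tested were called higher and lower. Females at P56 gave 33 higher and 8 lower of 58, against 17.0% and 11.1% of all genes. At P21, 41 of 58 were called higher and 3 lower in males (12.4% and 4.82% of all genes), and 18 of 59 were called higher and 1 lower in females (7.06% and 0.753%). Because the tables that name the members are sorted on these same comparisons, nothing is read from the distance to the shares of all genes. The median log2 fold change of the members was 0.78 in males and 0.71 in females at P56 and 0.58 and 0.55 at P21, while that of all genes tested lay between -0.03 and -0.01. A total of 15 members were called higher in all 4 comparisons, 17 were called in 3, 10 in 2, 14 in 1 and 3 in none (Foxd1, Id4 and Tead2), and no member was called in opposite directions. In P56 males, 35 members lay higher in all R237H rats than in all WT rats, 9 lay lower and 15 overlapped, where 23.0% of all genes tested lay higher and 19.0% lower in this way. P56 females gave 35, 8 and 16 (22.6% and 18.1% of all genes), P21 males 41, 9 and 9 (16.9% and 13.7%), and P21 females 28, 5 and 26 (14.1% and 7.37%). The calls of P21 females vary most: with 1 rat left out, between 8 and 17 members were called higher, with 8 without the WT rat R1796A, 10 without either of the WT rats R1790A and R1797C, and 11 without either of the R237H rats R1790B and R1790C. All P21 males share 1 title number, and their median coefficient of variation between rats was 8.94%, against 15.3% to 17.3% in the other comparisons. A call in P21 males only was thus made against a smaller spread. With all 32 rats in 1 fit, 24 members were called higher and 0 lower in P21 males.

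**Figure D1:**
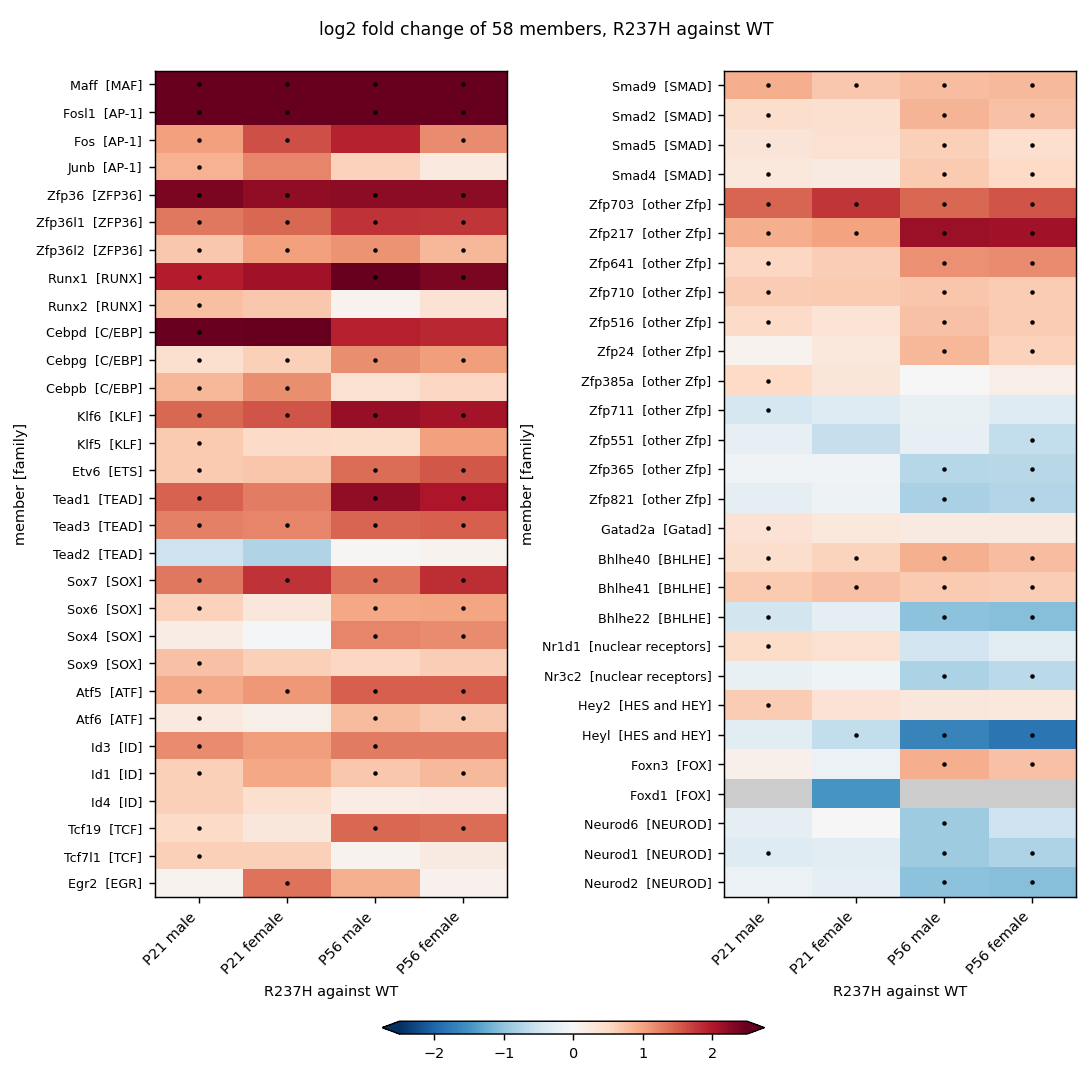
Log2 fold change of R237H against WT for 58 members (rows, with the family in brackets) in the 4 comparisons (columns). Red is higher and blue lower in R237H rats, colours end at 2.5, black dots mark genes called at an FDR under 0.01 and grey marks a gene not tested. Judged by the members shown, most families are red in all 4 columns. The Neurod genes, Bhlhe22, Heyl, Nr3c2, Zfp365 and Zfp821 are blue, most deeply at P56. Zfp551 and Zfp711 are also blue, as are Tead2 at P21 and Nr1d1 at P56.

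The members named by the table of 1 group can be read in rats which that table did not use. Of the 30 members named in males at P56, 23 were higher and 7 lower there. In the females of the same age, 23 of those 23 were called higher and 6 of the 7 were called lower. At P21, males gave 20 of the 23 higher and 2 of the 7 lower, and females 12 of the 23 and 1 of the 7. In the other direction in age, 38 of the 40 members named in males at P21 were higher there, of which 25 were called higher among P56 males, 25 among P56 females and 17 among P21 females. Of the 24 named in females at P56, 20 were higher and 4 lower there, and P56 males gave the same calls for all 20 and all 4. Of the 31 named in females at P21, 27 were higher and 4 lower there. At P56, 22 of these 27 were called higher in either sex, and of the 4, 1 was called lower in males and 2 in females. The matching share among all genes named by a table was not computed. These counts are therefore a description and are not read as particular to the factors. Some numbers in the sample titles occur in both sexes at P56, and what these numbers stand for is not given in the sources used here.

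The AP-1 members were Fosl1, Fos and Junb, subunits of the dimer that responds to growth factors and stress. Fosl1, which encodes FRA-1, showed the largest difference of all members. At P56, Fosl1 was at 0.231, 0.0783, 0.175 and 0.0481 CPM in WT males against 9.39, 7.01, 10.4 and 7.45 CPM in R237H males, and at 0.138, 0.147, 0.179 and 0.185 CPM in WT females against 12.3, 8.85, 9.11 and 8.63 CPM in R237H females. At P21, Fosl1 was at 0.1295, 0.0462, 0.106 and 0.116 CPM in WT males against 9.42, 7.001, 8.398 and 7.76 CPM in R237H males, and at 0.133, 0.0866 and 0.158 CPM in WT females against 6.57, 23.4, 6.45, 7.32 and 6.97 CPM in R237H females. Fosl1 was higher in every R237H rat than in every WT rat of its sex and age. The lowest R237H value stood far above the highest WT value, and WT rats held 2 to 11 expected counts of Fosl1 each, so the fold rests on few counts in WT. The Fosl1 log2 fold changes were 6.003 ± 0.38 in males and 5.86 ± 0.22 in females at P56, and 6.30 ± 0.21 and 6.34 ± 0.68 at P21. Fos, the immediate early partner, had log2 fold changes of 1.92 and 1.18 at P56 and 1.02 and 1.61 at P21 (males, then females), and was called in each comparison but that of P56 males. Junb had 0.58 and 0.25 at P56 and 0.86 and 1.21 at P21 and was called in males at P21.

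Maff belongs to the MAF family of leucine zipper factors. It encodes a small MAF protein, which lacks an activation domain and pairs with other leucine zipper proteins. Maff levels at P56 were 0.566, 0.9595, 0.426 and 0.3605 CPM (WT males), 26.9, 26.2, 30.4 and 30.7 CPM (R237H males), 1.43, 0.733, 0.874 and 1.18 CPM (WT females) and 36.3, 25.97, 30.6 and 38.3 CPM (R237H females). Maff levels at P21 were 0.691, 1.16, 0.826 and 0.812 CPM (WT males), 6.47, 5.202, 5.43 and 5.42 CPM (R237H males), 0.862, 1.41 and 0.867 CPM (WT females) and 4.804, 7.39, 7.96, 6.54 and 7.19 CPM (R237H females). The R237H rats held 4.80 to 7.96 CPM at P21 and 26.0 to 38.3 CPM at P56, while WT rats lay between 0.360 and 1.43 CPM over both ages. No Maff value of a WT rat reached the lowest R237H value of its sex and age. Maff differed between the genotypes by 5.62 ± 0.28 (males) and 4.94 ± 0.22 (females) on the log2 scale at P56 and by 2.70 ± 0.16 and 2.70 ± 0.25 at P21.

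The RefSeq table of promoters holds entries for 45 of the 59 members. It covers the 250 bases before the annotated start, in the GRCr8 assembly. The entry of Maff is shown because Maff had the largest difference between the ages. Capitals mark matches on either strand to the letters of the following motifs. These are a cAMP response element (TGACGTCA), an AP-1 site with any middle base (TGANTCA) and a STAT site (TTCNNNGAA). The others are the E-box bound by clock proteins (CACGTG) and a TEAD site (GGAATG).
Maff, chr7:112792537-112792786 (plus strand): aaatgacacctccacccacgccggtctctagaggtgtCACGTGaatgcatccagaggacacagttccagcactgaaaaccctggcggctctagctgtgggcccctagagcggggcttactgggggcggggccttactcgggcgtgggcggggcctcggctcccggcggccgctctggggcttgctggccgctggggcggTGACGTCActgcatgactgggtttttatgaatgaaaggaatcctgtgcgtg
In this window of Maff the cAMP response element begins 51 bases before the start and the E-box 213 bases before it. The cAMP response element was found in 2 of the 45 member promoters and in 1.59% of all 33469 promoters, and the E-box in 6 of 45 and in 5.59% of all promoters. AP-1 letters, with any middle base, occurred in 4 of 45 and in 6.34% of all promoters. They read TGACTCA in Atf5, TGATTCA in Foxd1 and Zfp36l1 and TGAATCA in Zfp217. TEAD letters were found in 4 of 45 (12.1% of all promoters) and STAT letters in 0 of 45 (7.67%). Of general promoter letters, the GC box GGGCGG was found in 31 of 45 (30.5% of all promoters), the CAAT box CCAAT in 19 of 45 (34.0%) and the TATA box TATAAA in 7 of 45 (12.9%). All motifs were searched on both strands, and neighbouring matches may share letters. A match describes the letters of the window and shows no binding.

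Atf5 and Atf6 were the ATF members, factors of the responses to unfolded proteins in mitochondria and endoplasmic reticulum, respectively. Atf5 in the P56 libraries stood at 27.9, 34.97, 34.97 and 46.9 CPM in WT and 84.7, 91.8, 111 and 109.9 CPM in R237H males, and at 28.7, 39.04, 46.4 and 30.2 CPM in WT and 96.6, 99.99, 110.4 and 104 CPM in R237H females. Atf5 in the P21 libraries stood at 23.6, 25.2, 24.9 and 26.4 CPM in WT and 50.7, 43.3, 49.8 and 48.1 CPM in R237H males, and at 27.4, 24.5 and 20.7 CPM in WT and 52.7, 65.8, 48.9, 47.7 and 38.96 CPM in R237H females. The genotypes did not overlap for Atf5 in either sex at either age, with R237H above WT. Atf5 had log2 fold changes of 0.94 ± 0.07 in males and 1.08 ± 0.17 in females at P21, and of 1.48 ± 0.16 and 1.496 ± 0.15 at P56. At P56, Atf6 was at 60.7, 54.6, 55.3 and 52.05 CPM in WT males against 98.4, 96.5, 88.5 and 94.1 CPM in R237H males, and at 56.4, 58.3, 52.4 and 58.7 CPM in WT females against 86.2, 98.4, 80.4 and 101 CPM in R237H females. At P21, Atf6 was at 60.9, 65.4, 65.1 and 65.8 CPM in WT males against 75.6, 73.5, 78.3 and 75.7 CPM in R237H males, and at 59.998, 63.1 and 72.4 CPM in WT females against 52.9, 68.98, 77.8, 72.7 and 86.6 CPM in R237H females. For Atf6, all R237H rats exceeded all WT rats in P56 males, P56 females and P21 males and the genotypes overlapped in P21 females. The distance between the genotypes was small at P21 for Atf6. The Atf6 log2 fold changes were 0.79 ± 0.08 in males and 0.68 ± 0.09 in females at P56, and 0.24 ± 0.05 and 0.15 ± 0.14 at P21.

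The C/EBP members were Cebpb and Cebpd, which are induced in acute-phase and inflammatory responses, and Cebpg, which lacks an activation domain and pairs with other zipper proteins such as ATF4. Cebpd had the largest difference of the family and also the widest spread. Cebpd levels at P56 were 0.482, 0.881, 0.702 and 2.57 CPM (WT males), 2.41, 3.18, 7.07 and 4.79 CPM (R237H males), 0.392, 2.42, 2.399 and 0.647 CPM (WT females) and 6.69, 4.55, 7.27 and 3.25 CPM (R237H females). Cebpd levels at P21 were 0.626, 0.485, 1.06 and 0.658 CPM (WT males), 3.87, 2.83, 4.92 and 4.33 CPM (R237H males), 1.04, 1.13 and 0.499 CPM (WT females) and 3.68, 15.8, 3.94, 4.89 and 1.93 CPM (R237H females). For Cebpd, all R237H rats exceeded all WT rats in P56 females, P21 males and P21 females and the genotypes overlapped in P56 males. The R237H female R1789B at P21 stood apart from its group. Cebpd differed between the genotypes by 1.95 ± 0.52 (males) and 1.88 ± 0.52 (females) on the log2 scale at P56 and by 2.48 ± 0.24 and 2.76 ± 0.68 at P21. Despite these sizes, Cebpd was called in males at P21 only, and Cebpb, with 0.37 and 0.51 at P56 and 0.83 and 1.17 at P21 (males, then females), was called at P21 in both sexes. Cebpg in the P56 libraries stood at 65.2, 62.4, 64.5 and 58.1 CPM in WT and 146, 146, 115 and 145 CPM in R237H males, and at 68.9, 68.2, 55.9 and 66.4 CPM in WT and 127, 130.1, 125 and 155 CPM in R237H females. Cebpg in the P21 libraries stood at 65.01, 58.1, 54.7 and 58.2 CPM in WT and 79.1, 83.01, 75.5 and 72.9 CPM in R237H males, and at 55.4, 53.02 and 61.1 CPM in WT and 84.7, 77.2, 91.4, 81.5 and 90.3 CPM in R237H females. Cebpg was higher in every R237H rat than in every WT rat of its sex and age. Cebpg had log2 fold changes of 0.40 ± 0.07 in males and 0.60 ± 0.09 in females at P21, and of 1.17 ± 0.10 and 1.04 ± 0.10 at P56.

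Klf6 and Klf5 encode Krüppel-like zinc finger factors. At P56, Klf6 was at 25.3, 27.9, 36.6 and 17.2 CPM in WT males against 121, 127, 99.01 and 130.04 CPM in R237H males, and at 28.6, 29.3, 25.8 and 30.7 CPM in WT females against 131, 119, 98.02 and 139 CPM in R237H females. At P21, Klf6 was at 31.3, 27.9, 30.8 and 28.7 CPM in WT males against 86.2, 91.6, 70.3 and 71.5 CPM in R237H males, and at 27.99, 30.8 and 32.9 CPM in WT females against 72.2, 110.4, 96.7, 77.9 and 95.9 CPM in R237H females. No Klf6 value of a WT rat reached the lowest R237H value of its sex and age. The Klf6 log2 fold changes were 2.18 ± 0.21 in males and 2.07 ± 0.12 in females at P56, and 1.44 ± 0.09 and 1.58 ± 0.15 at P21. Klf5 had log2 fold changes of 0.45 and 1.03 at P56 and 0.66 and 0.47 at P21 (males, then females) and was called in males at P21. Egr2 encodes an immediate early zinc finger factor that is also needed for myelination by Schwann cells. Egr2 levels at P56 were 3.104, 5.29, 2.68 and 3.92 CPM (WT males), 3.905, 3.55, 13.3 and 6.61 CPM (R237H males), 7.01, 4.76, 3.86 and 3.79 CPM (WT females) and 11.5, 2.77, 4.1996 and 2.88 CPM (R237H females). Egr2 levels at P21 were 4.43, 5.31, 5.83 and 5.42 CPM (WT males), 5.303, 6.08, 4.5004 and 6.11 CPM (R237H males), 1.57, 2.27 and 1.58 CPM (WT females) and 4.86, 6.93, 2.91, 4.51 and 3.87 CPM (R237H females). For Egr2, all R237H rats exceeded all WT rats in P21 females and the genotypes overlapped in P56 males, P56 females and P21 males. In females at P56 the R237H rat s64-A was the highest, and the other 3 R237H females lay at 2.77, 4.1996 and 2.88 CPM, against 3.79 to 7.01 CPM in WT females. Egr2 differed between the genotypes by 0.89 ± 0.42 (males) and 0.11 ± 0.44 (females) on the log2 scale at P56 and by 0.08 ± 0.12 and 1.36 ± 0.29 at P21.

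All 3 ZFP36 genes, regulators of mRNA decay rather than of transcription, were called higher in all 4 comparisons. Zfp36 encodes tristetraprolin, which limits the messages of cytokines. Zfp36 in the P56 libraries stood at 4.45, 7.77, 5.92 and 5.67 CPM in WT and 26.8, 26.5, 30.7 and 26.8 CPM in R237H males, and at 5.74, 6.06, 8.296 and 5.62 CPM in WT and 44.8, 25.6, 25.6 and 26.6 CPM in R237H females. Zfp36 in the P21 libraries stood at 4.17, 4.21, 4.32 and 4.797 CPM in WT and 25.4, 18.8, 22.5 and 23.1 CPM in R237H males, and at 6.99, 5.52 and 4.05 CPM in WT and 19.9, 54.6, 19.7, 17.7 and 16.3 CPM in R237H females. The genotypes did not overlap for Zfp36 in either sex at either age, with R237H above WT. Zfp36 had log2 fold changes of 2.36 ± 0.10 in males and 2.22 ± 0.43 in females at P21, and of 2.24 ± 0.17 and 2.24 ± 0.22 at P56. Zfp36l1 had log2 fold changes of 1.80 and 1.79 at P56 and 1.31 and 1.43 at P21 (males, then females). Zfp36l2 had 1.13 and 0.83 at P56 and 0.67 and 1.02 at P21. The 3 promoter windows are shown because these paralogs were higher together.
Zfp36, chr1:92799109-92799358 (minus strand): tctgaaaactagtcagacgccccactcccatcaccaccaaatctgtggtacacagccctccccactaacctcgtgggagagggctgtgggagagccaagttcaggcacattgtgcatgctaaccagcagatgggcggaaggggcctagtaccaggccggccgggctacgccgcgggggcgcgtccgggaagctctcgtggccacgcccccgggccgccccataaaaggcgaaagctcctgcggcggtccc
Zfp36l1, chr6:104668691-104668940 (minus strand): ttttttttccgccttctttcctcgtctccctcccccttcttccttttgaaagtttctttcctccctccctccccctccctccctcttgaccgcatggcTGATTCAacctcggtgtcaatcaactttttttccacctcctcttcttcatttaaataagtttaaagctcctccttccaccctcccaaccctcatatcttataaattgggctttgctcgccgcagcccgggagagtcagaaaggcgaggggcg
Zfp36l2, chr6:16242372-16242621 (plus strand): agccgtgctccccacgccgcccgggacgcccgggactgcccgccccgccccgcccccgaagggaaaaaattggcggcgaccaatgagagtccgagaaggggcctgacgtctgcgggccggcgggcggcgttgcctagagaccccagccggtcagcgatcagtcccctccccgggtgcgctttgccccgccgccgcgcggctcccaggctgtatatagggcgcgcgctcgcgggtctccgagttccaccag
Of the 5 motifs in capitals, the letters TGANTCA were matched in Zfp36l1, as TGATTCA. None of the 5 was found in the windows of Zfp36 and Zfp36l2.

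The other numbered Zfp genes, zinc finger genes that share a name more than a function, split into both directions. Zfp703 had the largest mean difference among them. At P56, Zfp703 was at 4.68, 9.204, 6.72 and 11.01 CPM in WT males against 16.7, 22.6, 19.1 and 25.9 CPM in R237H males, and at 6.87, 8.92, 9.89 and 6.06 CPM in WT females against 30.8, 20.99, 21.2 and 22.4 CPM in R237H females. At P21, Zfp703 was at 7.25, 7.37, 6.68 and 7.12 CPM in WT males against 19.8, 19.3, 19.7 and 18.7 CPM in R237H males, and at 5.44, 5.67 and 7.17 CPM in WT females against 17.6, 30.9, 17.8, 19.7 and 18.1 CPM in R237H females. Zfp703 was higher in every R237H rat than in every WT rat of its sex and age. The Zfp703 log2 fold changes were 1.44 ± 0.25 in males and 1.57 ± 0.19 in females at P56, and 1.45 ± 0.07 and 1.79 ± 0.22 at P21. Zfp217 encodes a zinc finger protein found in repressor complexes with histone-modifying enzymes. Zfp217 levels at P56 were 2.62, 3.92, 1.91 and 3.53 CPM (WT males), 12.9, 15.4, 13.3 and 11.1 CPM (R237H males), 2.95, 3.32, 2.98 and 3.12 CPM (WT females) and 12.9, 14.6, 13.2 and 12.7 CPM (R237H females). Zfp217 levels at P21 were 3.22, 3.37, 3.37 and 3.09 CPM (WT males), 6.89, 5.97, 5.57 and 5.86 CPM (R237H males), 3.96, 3.53 and 2.79 CPM (WT females) and 4.905, 8.13, 6.87, 7.89 and 6.505 CPM (R237H females). No Zfp217 value of a WT rat reached the lowest R237H value of its sex and age. Zfp217 differed between the genotypes by 2.16 ± 0.23 (males) and 2.09 ± 0.12 (females) on the log2 scale at P56 and by 0.90 ± 0.10 and 1.01 ± 0.20 at P21.

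Zfp24, Zfp365 and Zfp385a differed little at P21 or changed sign. Zfp24 in the P56 libraries stood at 37.3, 41.3, 37.1 and 30.3 CPM in WT and 66.4, 70.998, 54.9 and 63.4 CPM in R237H males, and at 36.004, 38.2, 34.2 and 48.1 CPM in WT and 46.7, 66.5, 57.2 and 63.99 CPM in R237H females. Zfp24 in the P21 libraries stood at 45.3, 42.6, 40.2 and 42.998 CPM in WT and 39.9, 50.02, 47.4 and 45.4 CPM in R237H males, and at 43.6, 40.8 and 39.2 CPM in WT and 55.7, 41.7, 48.7, 51.6 and 46.03 CPM in R237H females. For Zfp24, all R237H rats exceeded all WT rats in P56 males and the genotypes overlapped in P56 females, P21 males and P21 females. Zfp24 had log2 fold changes of 0.10 ± 0.08 in males and 0.25 ± 0.11 in females at P21, and of 0.83 ± 0.12 and 0.57 ± 0.14 at P56. Zfp365 is expressed in neurons and was 1 of the most abundant members in WT rats. At P56, Zfp365 was at 281, 243, 347 and 294 CPM in WT males against 172, 180.1, 182 and 163 CPM in R237H males, and at 293, 298, 280.2 and 291 CPM in WT females against 208, 186, 182 and 148 CPM in R237H females. At P21, Zfp365 was at 231, 249, 247 and 273 CPM in WT males against 221, 228, 245 and 243 CPM in R237H males, and at 225, 251 and 238 CPM in WT females against 222, 228, 207, 209 and 241 CPM in R237H females. For Zfp365, all R237H rats lay below all WT rats in P56 males and P56 females and the genotypes overlapped in P21 males and P21 females. The Zfp365 log2 fold changes were -0.71 ± 0.11 in males and -0.70 ± 0.10 in females at P56, and -0.09 ± 0.06 and -0.10 ± 0.08 at P21.

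Zfp385a encodes a zinc finger protein that binds RNA. Zfp385a levels at P56 were 28.2, 36.9, 33.7 and 43.1 CPM (WT males), 30.4, 33.1, 41.4 and 32.9 CPM (R237H males), 26.6, 33.2, 42.8 and 25.2 CPM (WT females) and 37.3, 31.4, 42.3 and 33.1 CPM (R237H females). Zfp385a levels at P21 were 23.8, 27.6, 27.9 and 33.7 CPM (WT males), 41.1, 33.4, 40.6 and 44.6 CPM (R237H males), 31.7, 36.6 and 25.6 CPM (WT females) and 36.9, 53.6, 39.1, 37.01 and 24.2 CPM (R237H females). The genotypes overlapped for Zfp385a in each sex and age. Zfp385a differed between the genotypes by -0.02 ± 0.14 (males) and 0.16 ± 0.17 (females) on the log2 scale at P56 and by 0.50 ± 0.11 and 0.30 ± 0.22 at P21. Its sign in males at P56 is not settled by these data, since the difference is smaller than its SE. Of the remaining Zfp genes, Zfp516 (0.73 and 0.64 at P56 and 0.48 and 0.35 at P21, males then females), Zfp641 (1.14 and 1.18 at P56 and 0.52 and 0.61 at P21) and Zfp710 (0.70 and 0.64 at P56 and 0.64 and 0.65 at P21) were each called higher in 3 comparisons. Zfp821 (-0.80 and -0.73 at P56 and -0.23 and -0.13 at P21) was called lower in both sexes at P56, Zfp551 (-0.20 and -0.62 at P56 and -0.20 and -0.57 at P21) in females at P56 and Zfp711 (-0.19 and -0.33 at P56 and -0.42 and -0.32 at P21) in males at P21. Gatad2a, the NuRD subunit, was called higher in males at P21. Gatad2a in the P56 libraries stood at 47.4, 49.1, 35.05 and 61.2 CPM in WT and 52.6, 53.02, 60.5 and 56.2 CPM in R237H males, and at 42.1, 44.6, 57.9 and 44.3 CPM in WT and 49.2, 55.99, 62.04 and 56.5 CPM in R237H females. Gatad2a in the P21 libraries stood at 39.3, 41.4, 45.6 and 49.4 CPM in WT and 54.2, 52.8, 57.4 and 62.1 CPM in R237H males, and at 47.7, 48.2 and 37.1 CPM in WT and 53.7, 63.5, 54.99, 54.1 and 37.5 CPM in R237H females. For Gatad2a, all R237H rats exceeded all WT rats in P21 males and the genotypes overlapped in P56 males, P56 females and P21 females. Gatad2a had log2 fold changes of 0.37 ± 0.08 in males and 0.26 ± 0.17 in females at P21, and of 0.23 ± 0.15 and 0.23 ± 0.12 at P56.

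Runx1 and Runx2 encode factors of blood and bone development, and RUNX1 is also present in microglia. At P56, Runx1 was at 0.168, 0.313, 0.351 and 0.577 CPM in WT males against 2.09, 2.11, 2.22 and 1.64 CPM in R237H males, and at 0.323, 0.562, 0.8296 and 0.185 CPM in WT females against 3.29, 1.79, 2.75 and 1.98 CPM in R237H females. At P21, Runx1 was at 0.151, 0.231, 0.127 and 0.348 CPM in WT males against 0.917, 0.768, 0.742 and 0.961 CPM in R237H males, and at 0.287, 0.347 and 0.184 CPM in WT females against 0.482, 2.27, 1.16, 1.33 and 0.611 CPM in R237H females. The genotypes did not overlap for Runx1 in either sex at either age, with R237H above WT. WT rats held 6 to 37 expected counts of Runx1 and R237H rats 16 to 144, so its SE is wide. The Runx1 log2 fold changes were 2.55 ± 0.34 in males and 2.34 ± 0.41 in females at P56, and 1.97 ± 0.30 and 2.09 ± 0.54 at P21. Runx2 had log2 fold changes of 0.09 and 0.36 at P56 and 0.75 and 0.68 at P21 (males, then females) and was called in males at P21. Etv6, the ETS member, encodes a repressor needed in blood formation. Etv6 levels at P56 were 2.29, 2.74, 3.56 and 2.45 CPM (WT males), 6.76, 8.16, 8.03 and 5.55 CPM (R237H males), 1.87, 2.69, 2.53 and 2.196 CPM (WT females) and 7.44, 6.34, 6.66 and 7.09 CPM (R237H females). Etv6 levels at P21 were 2.66, 3.19, 3.94 and 3.93 CPM (WT males), 5.93, 5.49, 4.45 and 5.54 CPM (R237H males), 3.07, 3.73 and 2.71 CPM (WT females) and 4.46, 7.12, 4.79, 4.28 and 4.93 CPM (R237H females). Etv6 was higher in every R237H rat than in every WT rat of its sex and age. Etv6 differed between the genotypes by 1.40 ± 0.20 (males) and 1.55 ± 0.16 (females) on the log2 scale at P56 and by 0.65 ± 0.14 and 0.70 ± 0.21 at P21.

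Microglial and macrophage markers were also higher in R237H rats. All 9 markers of that list have a symbol, and their summed level was 293 to 380 CPM in WT males and 912 to 1301 CPM in R237H males at P56, and 309 to 373 and 933 to 1150 CPM in females. At P21 it was 314 to 326 and 674 to 806 CPM in males, and 292 to 298 and 640 to 866 CPM in females. At P56 in either sex 8 of 9 were called higher (16.8% of all genes in males and 17.0% in females). Tmem119, a marker of resident microglia, had log2 fold changes of 0.50 in males and 0.19 in females and was not called. None of the 9 markers was at 0 in all rats. At P21 all 9 were called higher in males and 8 in females (12.4% and 7.06% of all genes). The part of microglial number in the differences of Runx1 was not tested.

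The SOX members were Sox4, Sox6, Sox7 and Sox9. Sox7, a member of the group known from endothelium, had the largest difference. Sox7 in the P56 libraries stood at 2.31, 1.92, 2.28 and 2.33 CPM in WT and 5.76, 5.99, 3.96 and 6.32 CPM in R237H males, and at 2.28, 2.003, 1.57 and 2.54 CPM in WT and 7.54, 7.36, 4.62 and 11.1 CPM in R237H females. Sox7 in the P21 libraries stood at 2.397, 2.22, 2.65 and 2.495 CPM in WT and 7.79, 5.36, 5.71 and 5.38 CPM in R237H males, and at 2.21, 2.56 and 1.79 CPM in WT and 5.29, 11.7, 7.42, 6.31 and 7.49 CPM in R237H females. No Sox7 value of a WT rat reached the lowest R237H value of its sex and age. Sox7 had log2 fold changes of 1.32 ± 0.14 in males and 1.81 ± 0.27 in females at P21, and of 1.34 ± 0.19 and 1.85 ± 0.26 at P56. Kdr, the endothelial marker with a symbol, went the other way, at 17.0 to 24.3 CPM in WT rats and 7.92 to 14.1 CPM in R237H rats at P56, and was called lower in all 4 comparisons. The other 6 markers of that list were not analysed here.

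Sox4, known from neural progenitors and newborn neurons, separated the genotypes at P56. At P56, Sox4 was at 2.62, 3.43, 3.16 and 4.13 CPM in WT males against 6.79, 7.27, 7.14 and 9.42 CPM in R237H males, and at 3.41, 3.96, 4.46 and 2.797 CPM in WT females against 9.28, 6.59, 8.49 and 9.297 CPM in R237H females. At P21, Sox4 was at 5.204, 5.18, 6.25 and 5.28 CPM in WT males against 7.81, 4.67, 6.08 and 6.38 CPM in R237H males, and at 6.08, 8.06 and 4.78 CPM in WT females against 5.41, 7.75, 6.61, 5.18 and 5.14 CPM in R237H females. For Sox4, all R237H rats exceeded all WT rats in P56 males and P56 females and the genotypes overlapped in P21 males and P21 females. The Sox4 log2 fold changes were 1.22 ± 0.18 in males and 1.19 ± 0.18 in females at P56, and 0.19 ± 0.14 and -0.06 ± 0.21 at P21. Sox6 had log2 fold changes of 0.97 and 0.99 at P56 and 0.57 and 0.28 at P21 (males, then females) and was called in 3 comparisons. Sox9, which encodes a factor of the astrocyte lineage, had 0.53 and 0.61 at P56 and 0.73 and 0.60 at P21 and was called in males at P21. The 6 astrocyte markers with a symbol summed to 2949 to 4400 CPM in WT males and 2470 to 3058 CPM in R237H males at P56, and to 2936 to 3106 and 2811 to 3023 CPM at P21. Of these 6, 3 were called lower in males at P56 (11.1% of all genes). In males at P21, 4 were called lower and 1 higher (4.82% and 12.4% of all genes). In females 3 were called lower at either age (11.1% of all genes at P56 and 0.753% at P21). The part of astrocyte number in the values of Sox9 was not tested.

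TEAD proteins bind DNA for the coactivators YAP and TAZ, and 3 TEAD genes were members. Tead1 levels at P56 were 4.03, 5.27, 5.19 and 2.31 CPM (WT males), 21.1, 18.05, 19.2 and 18.8 CPM (R237H males), 4.15, 4.86, 4.596 and 4.74 CPM (WT females) and 19.3, 19.4, 15.3 and 21.02 CPM (R237H females). Tead1 levels at P21 were 4.58, 4.88, 6.4000 and 5.803 CPM (WT males), 16.96, 14.7, 14.5 and 13.8 CPM (R237H males), 6.26, 6.302 and 6.62 CPM (WT females) and 6.83, 19.95, 16.3, 15.03 and 19.2 CPM (R237H females). The genotypes did not overlap for Tead1 in either sex at either age, with R237H above WT. Tead1 differed between the genotypes by 2.22 ± 0.24 (males) and 2.02 ± 0.13 (females) on the log2 scale at P56 and by 1.47 ± 0.11 and 1.29 ± 0.30 at P21. Tead3 had log2 fold changes of 1.46 and 1.49 at P56 and 1.25 and 1.21 at P21 (males, then females) and was called higher in all 4 comparisons. Tead2, known from neural progenitors, did not share this direction. Tead2 in the P56 libraries stood at 0.881, 2.33, 0.902 and 0.889 CPM in WT and 1.07, 0.992, 1.18 and 1.899 CPM in R237H males, and at 1.199, 0.904, 1.502 and 1.46 CPM in WT and 1.14, 1.11, 1.18 and 2.02 CPM in R237H females. Tead2 in the P21 libraries stood at 2.22, 2.31, 1.95 and 2.398 CPM in WT and 1.92, 1.16, 1.35 and 1.67 CPM in R237H males, and at 2.299, 2.902 and 2.42 CPM in WT and 1.57, 1.89, 1.37, 1.35 and 1.34 CPM in R237H females. For Tead2, all R237H rats lay below all WT rats in P21 males and P21 females and the genotypes overlapped in P56 males and P56 females. Tead2 had log2 fold changes of -0.53 ± 0.18 in males and -0.75 ± 0.19 in females at P21, and of 0.04 ± 0.39 and 0.09 ± 0.27 at P56. The WT male s66-B was the highest of the WT males at P56, and it is the library with the highest choroid plexus markers.

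Of the 14 genes listed for the Hippo pathway, 9 have a symbol. At P21 all 9 were called higher in males and 7 in females (12.4% and 7.06% of all genes). At P56, 6 of the 9 were called higher in each sex (16.8% of all genes in males and 17.0% in females). None was called lower at either age. Yap1, which encodes the coactivator itself, had log2 fold changes of 1.79 in males and 1.81 in females at P56 and 0.85 and 0.78 at P21. Wwtr1, which encodes TAZ, had 2.33 and 2.01 at P56 and 1.25 and 1.33 at P21. Ccn1 and Ccn2, known targets of YAP, had 3.40 and 1.67 in males at P56. The activity of YAP was not tested. These genes have a symbol through the same sorted tables, so their counts describe the genes with a symbol and not the pathway.

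SMAD proteins carry signals from the receptors of the TGF-beta family to the nucleus. SMAD2 follows TGF-beta and activin, SMAD5 and SMAD9 follow BMP, and SMAD4 is the common partner. At P56, Smad9 was at 5.62, 6.48, 7.796 and 5.24 CPM in WT males against 11.7, 11.6, 9.62 and 9.35 CPM in R237H males, and at 5.44, 7.45, 6.28 and 7.17 CPM in WT females against 14.6, 12.8, 11.1 and 8.41 CPM in R237H females. At P21, Smad9 was at 6.37, 6.59, 6.36 and 6.15 CPM in WT males against 13.2, 11.6, 11.4 and 11.2 CPM in R237H males, and at 6.96, 6.45 and 6.39 CPM in WT females against 9.11, 9.58, 11.5, 9.56 and 12.3 CPM in R237H females. Smad9 was higher in every R237H rat than in every WT rat of its sex and age. The Smad9 log2 fold changes were 0.78 ± 0.16 in males and 0.82 ± 0.18 in females at P56, and 0.90 ± 0.08 and 0.67 ± 0.14 at P21. Smad4 levels at P56 were 49.1, 45.9, 52.3 and 45.3 CPM (WT males), 76.3, 76.4, 71.2 and 75.8 CPM (R237H males), 52.4, 50.8, 46.9 and 54.2 CPM (WT females) and 81.4, 71.7, 64.3 and 75.6 CPM (R237H females). Smad4 levels at P21 were 56.1, 55.4, 54.6 and 52.96 CPM (WT males), 64.8, 62.6, 68.2 and 65.2 CPM (R237H males), 51.02, 50.6 and 56.2 CPM (WT females) and 53.1, 65.9, 61.2, 57.1 and 68.2 CPM (R237H females). For Smad4, all R237H rats exceeded all WT rats in P56 males, P56 females and P21 males and the genotypes overlapped in P21 females. The Smad4 differences were small and at P56 larger than at P21. Smad4 differed between the genotypes by 0.66 ± 0.08 (males) and 0.51 ± 0.09 (females) on the log2 scale at P56 and by 0.25 ± 0.05 and 0.23 ± 0.10 at P21. Smad2 had log2 fold changes of 0.85 and 0.74 at P56 and 0.44 and 0.40 at P21 (males, then females), and Smad5 had 0.60 and 0.42 at P56 and 0.33 and 0.38 at P21. Each of Smad2, Smad4 and Smad5 was called higher in 3 comparisons and not in females at P21.

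ID genes are classical targets of BMP signalling. Id3 had the largest mean difference. Id3 in the P56 libraries stood at 12.3, 19.9, 6.27 and 18.98 CPM in WT and 33.4, 28.8, 34.02 and 42.01 CPM in R237H males, and at 8.92, 14.7, 23.99 and 12.7 CPM in WT and 18.5, 44.7, 51.8 and 34.6 CPM in R237H females. Id3 in the P21 libraries stood at 8.74, 8.85, 11.99 and 9.88 CPM in WT and 20.6, 23.7, 21.4 and 23.02 CPM in R237H males, and at 15.9, 12.9 and 7.96 CPM in WT and 26.5, 28.7, 27.1, 31.6 and 11.1 CPM in R237H females. For Id3, all R237H rats exceeded all WT rats in P56 males and P21 males and the genotypes overlapped in P56 females and P21 females. The R237H female R1797D at P21 was the lowest of its group. Id3 had log2 fold changes of 1.17 ± 0.10 in males and 1.04 ± 0.33 in females at P21, and of 1.29 ± 0.31 and 1.30 ± 0.34 at P56. Id1 had log2 fold changes of 0.67 and 0.82 at P56 and 0.60 and 0.97 at P21 (males, then females) and was called in 3 comparisons. Id4 had 0.18 and 0.20 at P56 and 0.60 and 0.40 at P21 and was not called. Among the 22 listed genes of BMP and TGF-beta signalling, 9 have a symbol. Of these 9, 6 were called higher in either sex at P56 (16.8% of all genes in males and 17.0% in females). In P21 males 6 and in P21 females 2 were called higher (12.4% and 7.06% of all genes), and none was lower at either age. The ligand gene Tgfb1 had 1.88 and 1.78 at P56, and Bmp2 had 2.69 and 1.99.

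Heyl and Hey2 encode repressors that are targets of the Notch pathway. Heyl was the member with the largest decrease. At P56, Heyl was at 20.4, 23.5, 24.6 and 23.7 CPM in WT males against 6.47, 6.75, 8.63 and 6.43 CPM in R237H males, and at 26.4, 26.4, 29.1 and 25.2 CPM in WT females against 7.698, 7.28, 8.32 and 7.09 CPM in R237H females. At P21, Heyl was at 18.4, 17.2, 19.2 and 20.6 CPM in WT males against 14.8, 13.96, 16.2 and 16.7 CPM in R237H males, and at 20.6, 18.99 and 20.4 CPM in WT females against 14.2, 13.5, 11.9, 13.1 and 12.5 CPM in R237H females. Heyl was lower in every R237H rat than in every WT rat of its sex and age. R237H rats held 11.9 to 16.7 CPM of Heyl at P21 and 6.43 to 8.63 CPM at P56, whereas WT rats held 17.2 to 20.6 CPM and 20.4 to 29.1 CPM. The Heyl log2 fold changes were -1.68 ± 0.13 in males and -1.83 ± 0.10 in females at P56, and -0.29 ± 0.08 and -0.61 ± 0.10 at P21. Hey2 differed in sign from Heyl, with log2 fold changes of 0.28 and 0.26 at P56 and 0.63 and 0.35 at P21 (males, then females), and was called higher in males at P21. Of the 13 Notch genes listed, 6 have a symbol. At P56 2 of them were called higher and 1 lower in either sex. Of all genes, 16.8% in males and 17.0% in females were higher there, and 11.1% in either sex were lower. In P21 males 4 were higher and 0 lower (12.4% and 4.82% of all genes), and in P21 females 1 was higher and 1 lower (7.06% and 0.753%). The ligand gene Jag1 was among the higher ones, at 0.85 in males and 0.96 in females, and Notch3 had -0.23 and -0.20 and was not called.

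The 3 BHLHE genes divided into 2 clock genes that were higher and 1 neuronal gene that was lower. Bhlhe40 and Bhlhe41 encode DEC1 and DEC2, repressors that act on the E-box of clock genes. Bhlhe40 levels at P56 were 80.4, 78.2, 79.4 and 67.04 CPM (WT males), 140.1, 136, 137 and 144 CPM (R237H males), 88.2, 72.98, 79.8 and 78.4 CPM (WT females) and 155, 136, 118 and 142 CPM (R237H females). Bhlhe40 levels at P21 were 57.1, 60.98, 53.04 and 59.4 CPM (WT males), 82.8, 83.3, 72.4 and 74.4 CPM (R237H males), 56.8, 57.4 and 62.2 CPM (WT females) and 76.000, 97.3, 86.6, 87.5 and 80.2 CPM (R237H females). No Bhlhe40 value of a WT rat reached the lowest R237H value of its sex and age. Bhlhe40 differed between the genotypes by 0.90 ± 0.09 (males) and 0.77 ± 0.10 (females) on the log2 scale at P56 and by 0.45 ± 0.07 and 0.55 ± 0.10 at P21. Bhlhe41 had log2 fold changes of 0.66 and 0.62 at P56 and 0.65 and 0.74 at P21 (males, then females), and both genes were called higher in all 4 comparisons. Their windows are shown because each holds the E-box CACGTG, 220 bases before the start in Bhlhe40 and 48 bases before it in Bhlhe41.
Bhlhe40, chr4:143174200-143174449 (plus strand): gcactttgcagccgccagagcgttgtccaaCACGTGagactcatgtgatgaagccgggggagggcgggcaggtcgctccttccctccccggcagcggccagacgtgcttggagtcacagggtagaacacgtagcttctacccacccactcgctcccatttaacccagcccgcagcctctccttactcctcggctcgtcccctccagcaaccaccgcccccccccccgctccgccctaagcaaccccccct
Bhlhe41, chr4:180569356-180569605 (minus strand): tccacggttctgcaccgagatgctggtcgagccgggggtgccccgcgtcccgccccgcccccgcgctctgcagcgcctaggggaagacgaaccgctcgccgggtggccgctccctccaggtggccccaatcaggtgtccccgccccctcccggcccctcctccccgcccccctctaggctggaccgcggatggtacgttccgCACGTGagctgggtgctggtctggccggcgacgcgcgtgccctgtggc
The time of day of the dissections is not given in the sources used here. Bhlhe22 encodes a repressor of neurons. Bhlhe22 in the P56 libraries stood at 133, 122, 149.9 and 137 CPM in WT and 69.2, 66.2, 65.9 and 60.7 CPM in R237H males, and at 119.6, 152, 116 and 171 CPM in WT and 72.1, 67.4, 70.9 and 60.8 CPM in R237H females. Bhlhe22 in the P21 libraries stood at 132, 111, 109.5 and 106 CPM in WT and 78.4, 77.7, 94.4 and 84.9 CPM in R237H males, and at 108, 107 and 116 CPM in WT and 118, 63.4, 87.8, 76.3 and 117 CPM in R237H females. For Bhlhe22, all R237H rats lay below all WT rats in P56 males, P56 females and P21 males and the genotypes overlapped in P21 females. Bhlhe22 had log2 fold changes of -0.45 ± 0.08 in males and -0.24 ± 0.18 in females at P21, and of -1.02 ± 0.09 and -1.06 ± 0.13 at P56.

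The 3 NEUROD genes, which drive the differentiation of excitatory neurons, were lower. Neurod2 had the largest mean difference. At P56, Neurod2 was at 44.4, 46.1, 35.3 and 68.1 CPM in WT males against 21.8, 25.7, 26.6 and 19.2 CPM in R237H males, and at 42.6, 57.6, 60.3 and 46.3 CPM in WT females against 28.8, 26.3, 27.7 and 17.3 CPM in R237H females. At P21, Neurod2 was at 39.7, 39.1, 42.1 and 38.8 CPM in WT males against 37.1, 28.5, 39.02 and 39.5 CPM in R237H males, and at 42.4, 40.7 and 38.1 CPM in WT females against 36.9, 34.7, 33.7, 28.96 and 35.9 CPM in R237H females. For Neurod2, all R237H rats lay below all WT rats in P56 males, P56 females and P21 females and the genotypes overlapped in P21 males. The Neurod2 log2 fold changes were -1.03 ± 0.19 in males and -1.06 ± 0.17 in females at P56, and -0.15 ± 0.09 and -0.24 ± 0.10 at P21. Neurod1 had log2 fold changes of -0.89 and -0.78 at P56 and -0.32 and -0.29 at P21 (males, then females) and was called lower in 3 comparisons, those of P56 and that of P21 males. Neurod6, at a median of 186 TPM in WT rats the most abundant member, had -0.89 and -0.53 at P56 and -0.25 and -0.00 at P21 and was called in males at P56. The window of Neurod6 is shown because it holds the same cAMP response element as Maff, 53 bases before the start, although Neurod6 was lower and Maff higher in R237H rats.
Neurod6, chr4:86180156-86180405 (minus strand): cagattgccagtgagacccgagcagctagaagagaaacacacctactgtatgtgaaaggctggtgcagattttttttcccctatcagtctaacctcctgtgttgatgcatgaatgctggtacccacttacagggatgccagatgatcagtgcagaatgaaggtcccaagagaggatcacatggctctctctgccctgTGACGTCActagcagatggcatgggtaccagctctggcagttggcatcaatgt
Of the 7 dentate granule and newborn neuron markers, 4 have a symbol. Of these, 1 was called lower in P56 males and 3 in P56 females (11.1% of all genes in either sex). In P21 males 2 and in P21 females 0 were called lower (4.82% and 0.753% of all genes). The 4 markers of dentate granule and newborn neurons with a symbol, which include Neurod1, summed to 95.7 to 156 CPM in WT males and 73.3 to 89.2 CPM in R237H males at P56, and to 203 to 213 and 149 to 178 CPM at P21. In females they summed to 118 to 149 and 73.4 to 97.8 CPM at P56, and to 209 to 239 and 130.2 to 219.7 CPM at P21, where the genotypes overlapped. The part of neuron number in these values was not tested.

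The nuclear receptors were Nr1d1 and Nr3c2. Nr1d1 encodes REV-ERB alpha, a heme-binding repressor of the clock. Nr1d1 levels at P56 were 72.4, 90.1, 102 and 105 CPM (WT males), 67.3, 70.2, 68.9 and 54.8 CPM (R237H males), 63.2, 86.4, 111 and 68.2 CPM (WT females) and 86.3, 75.8, 65.1 and 48.6 CPM (R237H females). Nr1d1 levels at P21 were 45.3, 54.5, 56.4 and 57.1 CPM (WT males), 87.5, 62.99, 68.2 and 73.4 CPM (R237H males), 71.6, 62.7 and 50.7 CPM (WT females) and 54.4, 127, 71.3, 90.8 and 57.4 CPM (R237H females). For Nr1d1, all R237H rats exceeded all WT rats in P21 males, all R237H rats lay below all WT rats in P56 males and the genotypes overlapped in P56 females and P21 females. Nr1d1 differed between the genotypes by -0.48 ± 0.13 (males) and -0.27 ± 0.21 (females) on the log2 scale at P56 and by 0.46 ± 0.10 and 0.39 ± 0.26 at P21. The sign of Nr1d1 thus differed between the ages in males, and it was called in males at P21 only. In females the estimates had the same signs as in males, but neither was called and the genotypes overlapped at both ages. A change of sign is therefore not settled in females. Nr3c2 encodes the mineralocorticoid receptor, which is abundant in hippocampal neurons. Nr3c2 in the P56 libraries stood at 227, 194, 251 and 226 CPM in WT and 134, 129, 131 and 116 CPM in R237H males, and at 210.2, 226, 206 and 244 CPM in WT and 167, 135, 127 and 127 CPM in R237H females. Nr3c2 in the P21 libraries stood at 204, 206, 197 and 195 CPM in WT and 184, 159, 179.97 and 179 CPM in R237H males, and at 187, 176 and 168 CPM in WT and 156, 181, 153, 145 and 179 CPM in R237H females. For Nr3c2, all R237H rats lay below all WT rats in P56 males, P56 females and P21 males and the genotypes overlapped in P21 females. Nr3c2 had log2 fold changes of -0.19 ± 0.05 in males and -0.11 ± 0.10 in females at P21, and of -0.79 ± 0.10 and -0.68 ± 0.11 at P56.

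The FOX members were Foxn3 and Foxd1. Foxn3 encodes a repressor. At P56, Foxn3 was at 20.3, 19.3, 23.3 and 14.3 CPM in WT males against 35.1, 39.1, 38.5 and 30.6 CPM in R237H males, and at 19.3, 21.5, 20.9 and 19.3 CPM in WT females against 42.97, 36.01, 29.8 and 27.9 CPM in R237H females. At P21, Foxn3 was at 22.3, 28.7, 27.8 and 29.4 CPM in WT males against 28.9, 25.1, 32.99 and 31.6 CPM in R237H males, and at 26.5, 32.1 and 23.97 CPM in WT females against 17.7, 30.98, 24.96, 21.3 and 28.6 CPM in R237H females. For Foxn3, all R237H rats exceeded all WT rats in P56 males and P56 females and the genotypes overlapped in P21 males and P21 females. The Foxn3 log2 fold changes were 0.92 ± 0.15 in males and 0.74 ± 0.14 in females at P56, and 0.13 ± 0.10 and -0.14 ± 0.18 at P21. Foxd1 is also on the list of meningeal and fibroblast markers. Foxd1 levels at P56 were 0.105, 0.333, 0.125 and 0.192 CPM (WT males), 0.0853, 0.383, 0.1196 and 0.511 CPM (R237H males), 0.0922, 0.0244, 0.269 and 0.277 CPM (WT females) and 0.104, 0.134, 0.267 and 0.09605 CPM (R237H females). Foxd1 levels at P21 were 0.259, 0.162, 0.212 and 0.193 CPM (WT males), 0.179, 0.132, 0.186 and 0.1602 CPM (R237H males), 0.265, 0.303 and 0.237 CPM (WT females) and 0.121, 0.021004, 0.138, 0.113 and 0.0704 CPM (R237H females). For Foxd1, all R237H rats lay below all WT rats in P21 females and the genotypes overlapped in P56 males, P56 females and P21 males. Each rat held 1 to 22 expected counts of Foxd1. Among the comparisons of the genotypes, the gene passed the filter on low counts in females at P21 only, where its log2 fold change was -1.48 ± 0.46.

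The TCF members were Tcf19, which encodes a protein with a forkhead-associated domain, and Tcf7l1, a repressor of the Wnt pathway. Tcf19 in the P56 libraries stood at 1.89, 2.74, 1.83 and 1.59 CPM in WT and 4.46, 5.32, 5.35 and 6.43 CPM in R237H males, and at 2.31, 3.01, 1.704 and 0.925 CPM in WT and 6.402, 6.57, 3.65 and 4.36 CPM in R237H females. Tcf19 in the P21 libraries stood at 3.13, 3.26, 3.12 and 3.73 CPM in WT and 4.296, 4.35, 4.5004 and 5.29 CPM in R237H males, and at 2.81, 3.79 and 2.84 CPM in WT and 4.46, 3.97, 3.67, 4.28 and 2.7005 CPM in R237H females. For Tcf19, all R237H rats exceeded all WT rats in P56 males, P56 females and P21 males and the genotypes overlapped in P21 females. Tcf19 differed between the genotypes by 1.44 ± 0.22 (males) and 1.39 ± 0.33 (females) on the log2 scale at P56 and by 0.48 ± 0.12 and 0.29 ± 0.20 at P21. Tcf7l1 had log2 fold changes of 0.08 and 0.23 at P56 and 0.59 and 0.60 at P21 (males, then females) and was called in males at P21.

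**Figure D2:**
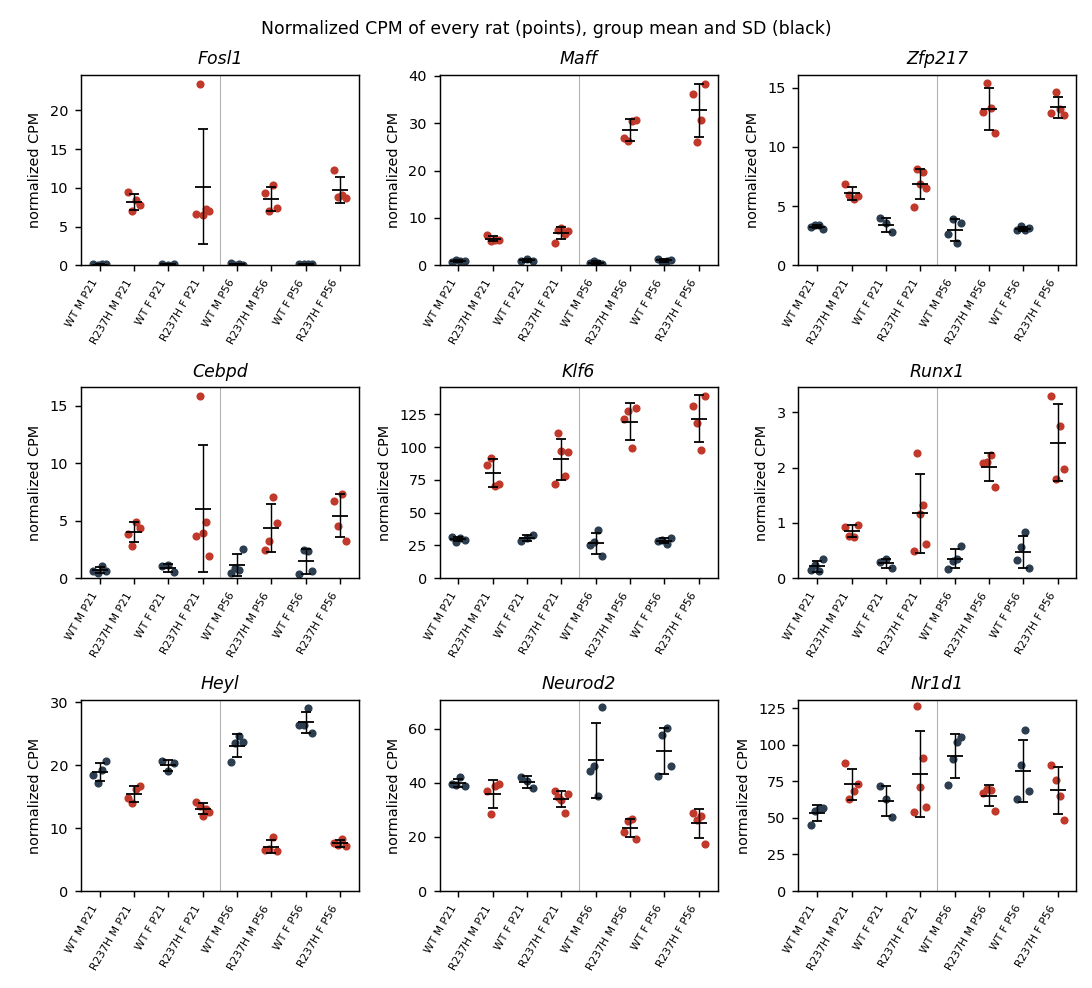
Normalized CPM of 9 members in each rat (points; WT dark, R237H red), with the group mean and SD in black, by sex (M, F) and age. Fosl1 is near 0 in all WT rats and at 6.45 CPM or above in all R237H rats, and Heyl is lower in every R237H rat.

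The difference between the genotypes was compared between the ages by the interaction of age and genotype in the 16 rats of a sex. In males 11 members had a larger log2 fold change at P56 and 5 a smaller one among 59 tested, where 5.81% and 4.31% of all genes tested were called in these directions. In females 2 were larger and 1 smaller, against 1.49% and 0.658%. The rule chose the members on both contrasts that make up this difference, so the counts are a description. On the log2 scale Maff differed most, by 2.90 ± 0.30 (males) and 2.25 ± 0.32 (females), and Heyl differed by -1.41 ± 0.15 and -1.22 ± 0.13. Zfp217 was the third member called in both sexes, at 1.24 ± 0.25 and 1.09 ± 0.21. Further members called with a larger value at P56 in males were Sox4, Tcf19, Foxn3, Cebpg, Zfp24, Atf6, Bhlhe40 and Smad4, with differences from 0.39 to 1.01. Those with a smaller value were Nr1d1 (-0.96 ± 0.18), Zfp365 (-0.64 ± 0.13), Nr3c2 (-0.62 ± 0.11) and Bhlhe22 (-0.60 ± 0.12).

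Maff and Heyl kept the call in both sexes with each of the 16 rats left out in turn. In males, Atf6, Bhlhe22, Cebpg, Nr1d1, Nr3c2, Zfp217, Zfp24 and Zfp365 kept it as well, whereas Tcf19 kept it in 2 of the 16 fits, Foxn3 in 3, Sox4 in 6, Bhlhe40 in 7 and Smad4 in 9. Zfp217 in females kept it in 5. The number of members larger at P56 in males was 5 without s66-A, R1781D or R1781I, 6 without s70-B, R1781F, R1781G or R1781H and 7 without s65-B or R1781C. That of females was 5 without R1789B and 1 without any of 11 other rats. The 6 rats with choroid plexus markers or low depth were also left out together. In males 2 members were then larger at P56 (Maff and Zfp217) and 4 smaller (Heyl, Bhlhe22, Nr3c2 and Zfp365), and in females 1 (Maff) and 1 (Heyl). Atf6, Cebpg, Nr1d1 and Zfp24 lost the call in males in this fit. The titles number the rats of P21 and P56 in separate series, and age cannot be told apart from collection.

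**Figure D3:**
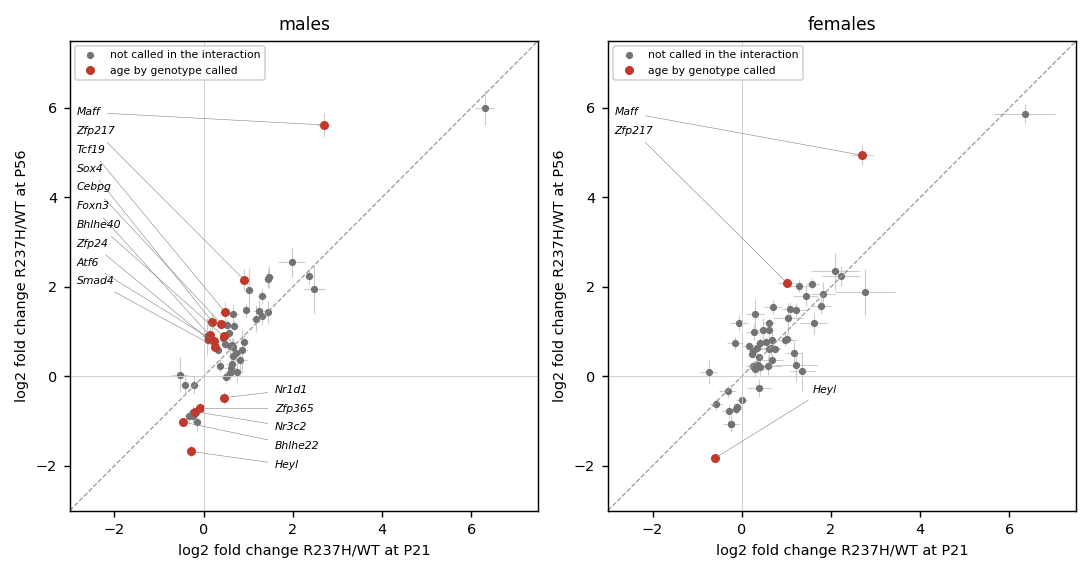
Log2 fold change of R237H against WT at P21 (horizontal) and P56 (vertical) with SE, for males and females. Points on the dashed line have equal values at both ages, and red, named points were called in the interaction of age and genotype. Maff lies above the line and Heyl below it in both sexes.

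The sexes were compared in the same way. No member and no other gene was called in the interaction of sex and genotype at P56 (0% of 15419 genes) or at P21 (0% of 15361 genes) by edgeR's quasi-likelihood test, by its likelihood-ratio test or with RLE factors. At an unadjusted p under 0.05, 0 members and 310 genes passed at P56 and 5 members and 458 genes at P21. The differences between the sexes in log2 fold change ran from -0.74 (Egr2) to 0.60 (Klf5) at P56 and from -1.14 (Foxd1) to 1.28 (Egr2) at P21.

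The change from P21 to P56 in WT rats is another contrast than those of the selection, but its WT rats also entered them, so it is not independent and no p-values are given. Sox9 and Nr1d1 were named by the table of P21 males alone. Of 57 members tested in WT males, 3 were called higher at P56 and 0 lower, against 0.741% and 1.70% of all genes, and of 58 in WT females 1 was higher and 0 lower, against 0.415% and 1.14%. At an unadjusted p under 0.05 there were 22 members and 3879 of 14848 genes in males, and 23 members and 3559 of 14946 genes in females. The likelihood-ratio test of edgeR called 3 members and 594 genes lower in males, and 2 members and 646 genes in females. Bhlhe41 was called in both sexes, with log2 fold changes of 0.68 ± 0.08 in males and 0.55 ± 0.08 in females (edgeR's quasi-likelihood test). WT males held Bhlhe41 at 42.4, 37.5, 40.8 and 39.7 CPM at P21 and 61.2, 61.1, 70.4 and 69.4 CPM at P56. WT females held it at 43.4, 39.8 and 41.4 and 58.3, 58.1, 65.2 and 65.5 CPM. The ages did not overlap in either sex. Sox9 rose by 1.13 ± 0.18 in WT males, with 0.75 ± 0.41 in WT females. Nr1d1 rose by 0.77 ± 0.13 in WT males, with 0.39 ± 0.20 in WT females.

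These calls rest on few rats. Bhlhe41 in males was lost without R1781D alone, and in females it was kept only without s69-D. Sox9 was kept in 2 and Nr1d1 in 1 of the 8 fits with 1 male left out. With the choroid plexus and shallow rats left out, none of the 3 passed in either sex. The direction was the same in every one of these fits. Maff and Heyl, whose difference between the genotypes changed most with age, had WT changes of -0.60 and 0.27 in males and -0.01 and 0.40 in females and were not called.

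**Figure D4:**
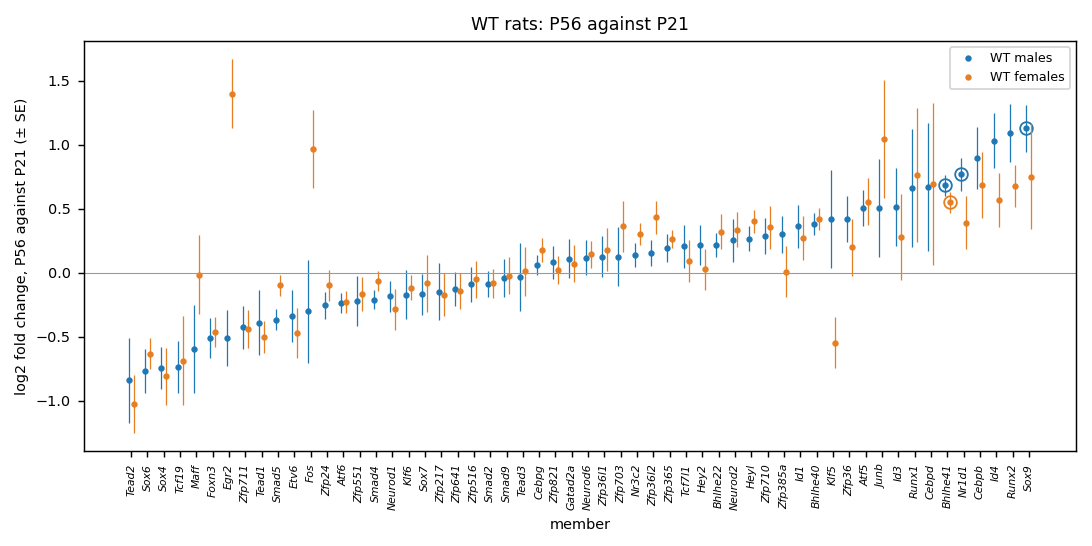
Log2 fold change of P56 against P21 with SE in WT males (blue) and WT females (orange), for the 56 members shown, each tested in both, ordered by the value in males. Open circles mark calls at an FDR under 0.01. Bhlhe41 is circled in both sexes, and Sox9 and Nr1d1 in males.

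Levels of WT rats, compared per transcript length as TPM, set the members apart. Over the 15 WT rats 55 members had a median above 1 TPM and 24 above 10 TPM. The most abundant were Neurod6 (median 186 TPM, range 149 to 211), Zfp365 (99.6, 90.1 to 110.4), Bhlhe22 (61.0, 54.7 to 87.6), Nr3c2 (55.6, 47.4 to 64.7) and Zfp821 (48.3, 29.5 to 56.5). All 5 were called lower in R237H males at P56, where 11.1% of all genes tested were, and Neurod6 was not called in females. The next most abundant member, Bhlhe41 (40.9), and also Bhlhe40 (34.9) were called higher in all 4 comparisons. The least abundant were Fosl1 (0.06), Foxd1 (0.16), Runx1 (0.24) and Maff (0.77), and 3 of these 4 were called higher in at least 3 comparisons. In single comparisons, 7.06% to 17.0% of all genes tested were called higher. The members were selected on the genotype, so this is a description of the selected genes. WT rats held 2 to 11 expected counts of Fosl1, so it could pass the filter on low counts only through R237H rats. Nothing is read from the directions of abundant or rare members.

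The IL-6 family and STAT3, which can act upstream of C/EBP genes and Junb, were listed with 13 genes, of which 11 have a symbol. Whether they do so here was not tested. At P56 10 of the 11 were called higher in either sex (16.8% of all genes in males and 17.0% in females). At P21 all 11 were called higher in males and 7 in females (12.4% and 7.06%). These genes have a symbol through the same sorted tables, so the counts describe the genes with a symbol and not the pathway. Socs3, the feedback inhibitor of STAT3, had log2 fold changes of 5.00 and 4.77 at P56 and 4.28 and 4.23 at P21. Stat3 itself had 2.25 and 2.14 at P56 and 1.30 and 1.42 at P21. Of the 10 genes listed for neuronal activity, Dusp6 alone has a symbol, so the values of Fos, Junb and Egr2 could not be set beside that list. Of the 8 markers of neutrophils and T cells none has a symbol.

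Members at the edge of the selection had small differences. Gatad2a, Zfp385a and Zfp711 had mean absolute log2 fold changes of 0.27, 0.24 and 0.32 over the 4 comparisons, and each was called in 1. Id4 and Tead2, with 0.35 each, were called in none although a table named them. Genes whose symbols would fit the selection but that no table named were not analysed here.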

How the data were processed

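Hippocampal RNA of 32 rats was sequenced (21580397 to 55544871 counts per library). Per the labels and the study's methods, the authors demultiplexed reads with bcl2fastq 2.20.0.422, trimmed them with Skewer, aligned them with STAR and deposited RSEM expected counts per gene and TPM, abundances scaled for length. The genome build is not given in the sources used here. Gene symbols were taken from the study's tables, and no values of them were used.

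Expected counts, of which 5.68% were not whole, were rounded, and the test was that of edgeR 4.0.16 (R 4.3.3): filterByExpr, TMM factors, the quasi-likelihood test, Benjamini-Hochberg adjustment over all genes and an FDR under 0.01. SEs come from the estimate and its F statistic. Genotypes were compared within sex and age, ages within WT rats, and age and sex by interaction terms. P-values set a difference against the spread between rats of a group. The steps were tested on simulated data. The members and lists were chosen with earlier results of these data known. Values of every rat are given for the member of each family with the largest mean difference and for members that differ in sign or were called in an interaction, and other members by log2 fold change. Alternatives were DESeq2 1.42.0, the likelihood-ratio test, RLE factors, other filters and thresholds, all rats in 1 fit, a block and leaving out rats. The values of 1 member, which stays in the counts, are not reported here. Genes of the same families without a symbol could not be matched. Promoters are from RefSeq (GRCr8).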

Additional observations from a re-analysis of the deposited data

Results flagged for a closer look

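In 24 of 238 groups of values checked, the highest or the lowest rat lay farther from its group than Dixon's 95% limit allows, where chance gives about 1 in 20 groups. Among R237H females at P21, R1789B stood apart for Cebpd (15.8 CPM, highest, others' median 3.81), Etv6 (7.12 CPM, highest, others' median 4.63), Fosl1 (23.4 CPM, highest, others' median 6.77), Zfp36 (54.6 CPM, highest, others' median 18.7) and Zfp703 (30.9 CPM, highest, others' median 17.9). Rat s69-B of the R237H males at P56 stood apart for Cebpg (115 CPM, lowest, others' median 146), Heyl (8.63 CPM, highest, others' median 6.47), Smad4 (71.2 CPM, lowest, others' median 76.3) and Zfp36 (30.7 CPM, highest, others' median 26.8). Among R237H females at P56, s64-A stood apart for Egr2 (11.5 CPM, highest, others' median 2.88), Fosl1 (12.3 CPM, highest, others' median 8.85), Zfp36 (44.8 CPM, highest, others' median 25.6) and Zfp703 (30.8 CPM, highest, others' median 21.2). Rat s70-C of the R237H females at P56 stood apart for Cebpg (155 CPM, highest, others' median 127) and Tead2 (2.02 CPM, highest, others' median 1.14). Among WT females at P56, s69-D stood apart for Gatad2a (57.9 CPM, highest, others' median 44.3) and Zfp36 (8.296 CPM, highest, others' median 5.74). Rat s66-B of the WT males at P56 stood apart for Sox7 (1.92 CPM, lowest, others' median 2.31) and Tead2 (2.33 CPM, highest, others' median 0.889). Among WT males at P21, R1781C stood apart for Atf6 (60.9 CPM, lowest, others' median 65.4). Rat s70-A of the WT males at P56 stood apart for Bhlhe40 (67.04 CPM, lowest, others' median 79.4). Among R237H females at P21, R1797D stood apart for Id3 (11.1 CPM, lowest, others' median 27.9). Rat R1781F of the WT males at P21 stood apart for Sox4 (6.25 CPM, highest, others' median 5.204). Among R237H males at P21, R1781A stood apart for Sox7 (7.79 CPM, highest, others' median 5.38).

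Leaving aside the 1 member whose values are not reported here, the genotype difference varied with age for 18 values by the interaction test of edgeR, at an FDR under 0.01 over all genes. On the log2 scale, P56 minus P21, they were Atf6 0.53, Bhlhe22 -0.60, Bhlhe40 0.43, Cebpg 0.75, Foxn3 0.76, Heyl -1.41, Maff 2.90, Nr1d1 -0.96, Nr3c2 -0.62, Smad4 0.39, Sox4 1.01, Tcf19 0.94, Zfp217 1.24, Zfp24 0.72 and Zfp365 -0.64 in males, and Heyl -1.22, Maff 2.25 and Zfp217 1.09 in females. The members were chosen on the contrasts that make up this difference, so the values are a description.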

How the results depend on the processing

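Of 5679 values recomputed under other settings, 268 called values fell short of the threshold and 120 newly passed it. A further 9 uncalled values changed sign by more than a set margin, and no called value reversed. The other 5282 were counted as the same. These include any uncalled values whose sign changed within that margin, and differences of TPM, which have no FDR and were compared by direction only. The counts of members called that moved by over 1.5 times follow. With the likelihood-ratio test, 6 were lower in P21 males, 3 lower in P21 females, 6 higher and 3 lower with age in WT males, 3 and 2 in WT females, 9 smaller at P56 in the interaction of males, and 5 larger and 3 smaller in that of females. DESeq2 gave 7 and 3 lower in P21 males and females, and 8 higher and 4 lower with age in WT males and 5 and 5 in WT females. An FDR under 0.05 gave 8 and 3 lower at P21. A fit of all 32 rats gave 24 higher and 0 lower in P21 males, 2 lower in P21 females, 7 and 3 with age in WT males and 4 and 1 in WT females. Leaving out the 6 rats with choroid plexus markers or low depth, an alternative chosen after seeing the data, gave 1 lower in P21 males, 10 higher and 0 lower in P21 females, 0 higher with age in either sex of WT, and 2 and 1 larger in the interaction of males and females. The cause of these shifts was not tested.

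With 1 rat left out at a time, counts higher and lower were 29 to 35 and 8 to 9 in P56 males, 28 to 32 and 7 to 9 in P56 females, 32 to 40 and 2 to 4 in P21 males, and 8 to 17 and 0 to 1 in P21 females, lowest without the WT female R1796A. For age in WT they were 0 to 3 and 0 to 1 in males and 0 to 1 and 0 in females, and for the interaction 5 to 12 and 5 to 7 in males and 1 to 5 and 1 to 3 in females. Title numbers as a replicate block gave 31 higher and 7 lower in P56 males, 22 and 4 in P56 females and 5 and 0 in P21 females. Rats with the same number correlated with r from -0.02 to 0.22 in P56 males, 0.07 and 0.47 in P56 females, and 0.02, 0.05 and 0.39 in P21 females. Since not every pair exceeded 0.1 and no source says what the numbers mark, they were not taken as pairing. P21 males share 1 number. Counts in WT limit Fosl1, Runx1 and Foxd1.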
